A study of Mus musculus with 50 samples.

Results

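The KO1 line of NSD1-/- mouse embryonic stem (ES) cells was compared with wild type cells through all genes that passed a filter on low counts, 5034 of the 37310 genes in each count table. J1, derived from the inner cell mass of a blastocyst of strain 129S4/SvJae, is a pluripotent mouse line. Wild type J1 cells and KO1 cells were both untreated and were grown in serum with the cytokine LIF on gelatin, and total RNA was sequenced in 2 libraries per group. The labels do not say how KO1 was made, whether it is a single clone, or whether replicate libraries were made from separate cultures. P-values therefore cover only library-to-library spread, whose source may be technical. A second NSD1-/- line, KO2, entered the fit so that 3 groups of 2 libraries shared an estimate of the spread, and was otherwise used for direct contrasts with KO1.

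Nsd1 encodes a lysine methyltransferase that writes dimethylation of H3K36 (H3K36me2), a mark of broad stretches between and within genes. This mark is known to hinder the Polycomb repressive complex, whose core subunits Ezh2 and Suz12 place the repressive mark H3K27me3. The series asks how NSD1 and the histone deacetylase HDAC1 act on acetylation of H3K27 at active enhancers, and the KO1 comparison addresses which transcripts differ in cells without NSD1.

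Total counts were 1168961 and 1194285 in KO1 and 1203554 and 1237783 in wild type, of which 33.3% to 37.2% lay at AY036118, a locus that overlaps a ribosomal RNA copy. Tested genes held a median of 24 to 27 counts per library, so most single genes rest on few fragments. Apart from AY036118, 79.6% of the counts of tested genes lay at the 2114 genes whose exons overlap a protein-coding gene on the other strand, and 11% at the 2560 genes with no gene opposite, that is, none sharing at least 50 exon bases. The counts were made with a strand setting of 1 and are read here as coming from the opposite strand, since abundant transcripts had few counts under their own name. Values below belong to the counted gene, and the gene opposite it is given after a slash: Gm17232/Tdh means counts at Gm17232, whose exons overlap Tdh. Where several genes overlap, only the one sharing the most exon bases is named, and lists are matched by that name. For example, Ints2 also overlaps 4632419I22Rik/Med13, Rab7 Gm5577/H1fx, Hoxa3 2700086A05Rik/Hoxa7 and Rcc1 Gm17300/Snhg3. Their parts in the counts were not separated. At a gene with none opposite, its own transcripts cannot be told apart from an unannotated one on the other strand.

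The following stretches show what such a count covers at 4 genes that carry the results. Each is the longest run of exon bases that the counted gene shares with coding exon of the gene opposite, written on the coding strand of the opposite gene, in capitals, with flanking bases in lower case. The build is mm9. Tdh (chr14:64116420-64116497, minus strand) encodes threonine dehydrogenase, and the capitals mark the 38 coding bases that lie within Gm17232.
Gm17232/Tdh: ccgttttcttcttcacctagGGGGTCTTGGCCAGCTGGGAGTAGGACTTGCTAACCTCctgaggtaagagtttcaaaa
Col1a1 (chr11:94811585-94811665, plus strand) encodes a chain of type I collagen, and the run of 41 bases, the longest of 3 runs that make up the 109 coding bases shared with Gm17329, holds the proline- and glycine-rich repeat of the collagen helix.
Gm17329/Col1a1: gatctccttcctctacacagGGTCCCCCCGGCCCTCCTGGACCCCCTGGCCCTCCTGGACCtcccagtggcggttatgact
Txnip (chr3:96363581-96363785, plus strand) encodes a thioredoxin-interacting protein that restrains glucose uptake. It shares 606 exon bases with Gm15441, of which 327 are coding, and the longest coding run has 165.
Gm15441/Txnip: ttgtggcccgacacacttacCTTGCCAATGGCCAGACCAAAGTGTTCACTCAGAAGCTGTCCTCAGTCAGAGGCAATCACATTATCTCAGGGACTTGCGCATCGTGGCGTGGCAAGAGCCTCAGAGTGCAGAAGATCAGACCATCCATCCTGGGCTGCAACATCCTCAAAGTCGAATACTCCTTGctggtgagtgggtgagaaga
Suz12 (chr11:79835574-79835791, plus strand), a core subunit of Polycomb, shares 178 bases with Gm16706.
Gm16706/Suz12: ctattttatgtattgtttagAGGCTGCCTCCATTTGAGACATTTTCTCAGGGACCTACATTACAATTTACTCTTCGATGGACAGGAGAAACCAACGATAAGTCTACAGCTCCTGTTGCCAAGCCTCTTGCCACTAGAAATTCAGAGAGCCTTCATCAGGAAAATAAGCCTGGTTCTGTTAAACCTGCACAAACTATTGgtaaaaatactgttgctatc
Fragments counted at the first gene of each pair can lie in these bases or elsewhere in its exons, so both names are kept together.

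Counts at Nsd1 itself (chromosome 13, plus strand, 55311143 to 55419686) were 55 and 38 in KO1 and 21 and 25 in wild type. The libraries did not overlap, and the counts were higher in KO1 by 0.94 ± 0.27 on the log2 scale (SE). Its adjusted p was 0.0230 (edgeR, quasi-likelihood test, Benjamini-Hochberg over all tested genes), as for every adjusted p below. The call was lost without KO1 replicate 1, without either wild type replicate and under DESeq2, with adjusted p up to 0.289 when a library was left out. No gene lies opposite Nsd1, and on this reading of strand the counts are no check of the labelled NSD1-/- genotype. Among its relatives, Nsd2 is annotated as Whsc1, and Whsc1/Whsc2 held 34 and 31 counts in KO1 and 34 and 33 in wild type. Whsc2/Whsc1, the counted gene opposite Nsd2, held 115 and 120 against 99 and 94 (0.22 ± 0.15). Whsc1l1 (Nsd3) held 10 and 10 against 10 and 9. None of these was called. Hdac1 held 46 and 56 counts in KO1 and 32 and 49 in wild type and was not called (0.27 ± 0.25), and Hdac2, with 0 and 10 against 2 and 7, was too low to test.

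Across all tested genes, 174 were higher in KO1 (3.46%) and 319 were lower (6.34%), 493 in all (9.79%). Of the higher genes, 76 changed by at least 1 on the log2 scale and 20 by at least 2, against 71 and 9 of the lower genes. The median over all tested genes was 0.0051, and the KO1 and wild type libraries did not overlap at 51.1% of them. Lack of overlap was also a condition for genes named below by size of change or level, so it is no further support for their calls. Calls were more frequent where there were more counts: 84 higher and 273 lower of the 2114 genes with a protein-coding gene opposite (16.9%, median level 60.9 CPM, counts scaled to a common library size), but 73 higher and 36 lower of the 2560 with none (4.26%, median 13.7 CPM). The difference in level between these classes was not separated from the difference in strand arrangement. Lower calls were also concentrated on chromosome 6, which is described apart from the others. Off chromosome 6, 169 of 4775 genes were higher (3.54%) and 255 lower (5.34%), together 8.88%, and the groups did not overlap at 50.3%.

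**Figure D1:**
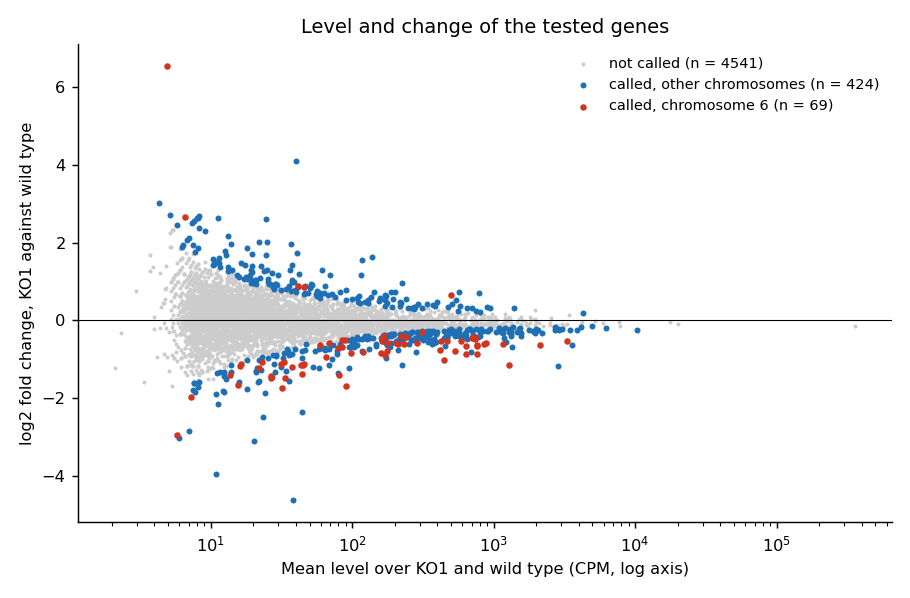
Each point is a tested gene, with its mean level over the 4 KO1 and wild type libraries in CPM (log axis) and its log2 fold change, KO1 against wild type. Called genes on chromosome 6 (red, 69) lie mostly below 0, and called genes elsewhere (blue, 424) lie on both sides.

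Chromosome 6 was lower in KO1 along its whole length. It took 3.95% and 3.99% of the counts outside AY036118 in the KO1 libraries and 5.34% in each wild type library, a ratio of 0.743. The groups did not overlap, and the exact two-sided permutation test gave p = 0.333, the smallest value that 2 against 2 libraries allow. The median log2 fold change of its 259 tested genes was -0.42, which is 0.43 below the median of all other tested genes and corresponds to a ratio of 0.740 relative to them, and 210 of the 259 genes lay below 0. Against the mean of wild type, and relative to the other chromosomes, the shift was -0.45 in KO1 replicate 1 and -0.44 in KO1 replicate 2 (log2(CPM + 1)), while wild type replicate 1 differed from replicate 2 by 0.024. The medians of the other chromosomes, apart from the mitochondrial genome, ran from -0.067 on chromosome 14 to 0.083 on chromosome 1.

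**Figure D2:**
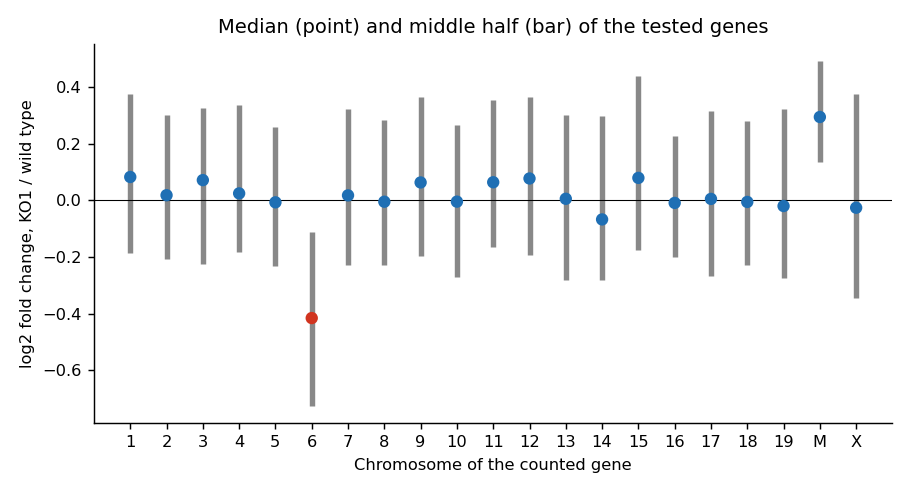
For each chromosome, the point is the median log2 fold change of its tested genes, KO1 against wild type, and the bar spans the middle 50 percent of them. Chromosome 6 (red) has a median of -0.42, and the other nuclear chromosomes lie between -0.067 and 0.083.

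The lower values of chromosome 6 were present along the chromosome and at low and high levels. In each of the 15 stretches of 10 Mb the median was below 0, from -0.25 to -1.14. These stretches held from 3 to 50 tested genes, and the median of -1.14 rests on 7. The first stretch, 0 to 10 Mb, held 3 tested genes with 0 called. In 4 classes of level with 64 or 65 genes each, the medians were -0.41, -0.33, -0.40 and -0.53 from the lowest to the highest. Genes of the other chromosomes in the same ranges of level also had lower medians at higher level: 0.134, 0.0953, 0.0327 and -0.0755. The chromosome 6 values alone therefore do not show a deeper shift at high level. Among the 45 genes with at least 100 CPM, 43 lay below 0 with a median of -0.54 (a ratio of 0.689), against -0.087 for the 926 other genes at that level. In all, 64 of the 259 genes were called lower (24.7%) and 5 were called higher (1.93%), and the groups did not overlap at 64.9%. Chromosome copy number was not analysed here.

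Of the 4 most abundant lower genes of chromosome 6, 3 fell by 0.54 to 0.63 on the log2 scale, and 2410003K15Rik/Igf2bp3, given further on, fell by 1.16. Gm15884/Phb2, opposite the gene for the mitochondrial scaffold protein prohibitin, held 3313 and 3205 counts in KO1 and 4425 and 4598 in wild type, a log2 fold change of -0.54 ± 0.05 (adjusted p 5.22e-10). Gm5577/H1fx, opposite a linker histone gene, fell by 0.63 ± 0.05, and Irf5/Tnpo3, opposite a nuclear import receptor gene, fell by 0.61 ± 0.06. Gm17629/Ezh2, a less abundant member of the Polycomb list, opposite the gene for the H3K27 methyltransferase, held 846 and 818 counts in KO1 and 1250 and 1156 in wild type, 685 ± 1.28 against 1038 ± 78.4 CPM (SD, n = 2), and fell by 0.60 ± 0.07 (adjusted p 9.53e-08). In each of these genes both KO1 libraries lay below both wild type libraries.

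To describe what differed beyond the chromosome as a whole, the genes of chromosome 6 were also scaled with a factor of their own in each library. On that scale 18 genes were lower (6.95%), all of them among the 64, and 12 were higher (4.63%), 5 of them shared with the original calls. Phb2, Ezh2 and Tnpo3, read through the genes opposite, were not called on that scale, with Gm15884/Phb2 at -0.07 ± 0.05, Gm17629/Ezh2 at -0.14 ± 0.06 and Irf5/Tnpo3 at -0.15 ± 0.06. Gm5577/H1fx kept a call, at -0.17 ± 0.05 (adjusted p 0.0473).

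Among the other genes that stood below the chromosome as a whole, 2410003K15Rik/Igf2bp3 lies opposite the gene for an RNA-binding protein of fetal tissues that binds Igf2 messages. It held 954 and 988 counts in KO1 and 2083 and 2059 in wild type, 800 ± 40.3 against 1787 ± 51.0 CPM. Both KO1 libraries lay far below both wild type libraries, and the log2 fold change was -1.16 ± 0.06 (adjusted p 2.69e-15), or -0.70 ± 0.06 on the scale of the chromosome. 2700086A05Rik/Hoxa7, opposite a homeobox gene of body-axis patterning, held 16 and 20 counts against 55 and 60 and fell by 1.74 ± 0.26 (1.27 ± 0.26 on the chromosome's scale).

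The remaining genes named here below the chromosome's shift had fewer counts than 2410003K15Rik/Igf2bp3. Il12rb2, a chain of the interleukin 12 receptor with no gene opposite, held 62 and 43 counts in KO1 and 148 and 174 in wild type and fell by 1.68 ± 0.17 (adjusted p 1.57e-08). Zfp775, a zinc finger gene with none opposite, held 53 and 55 counts against 139 and 134 and fell by 1.40 ± 0.16. Bhlhe40, a basic helix-loop-helix repressor, was read through 0610040F04Rik, which held 23 and 20 counts against 52 and 63 and fell by 1.48 ± 0.25. Groups did not overlap in any of the 3. The metalloprotease gene Adamts9 was read through a pair of genes, Gm15737 (29 and 30 counts against 68 and 80) and A730049H05Rik (37 and 33 against 70 and 76), which fell by 1.39 ± 0.21 and 1.12 ± 0.21. Gm4876/Tes, opposite a focal adhesion gene, fell by 1.50 ± 0.28, and Gm14573/Hdac11, opposite the gene for a class IV deacetylase, fell by 1.67 ± 0.36 from 31 and 24 counts to 11 and 7, a call lost without KO1 replicate 2 (adjusted p 0.0598). Loxl3 (a lysyl oxidase gene) and Htra2 (a mitochondrial protease gene) overlap each other, and counts fell on both strands, by 1.03 ± 0.08 at Loxl3/Htra2 and 0.78 ± 0.08 at Htra2/Loxl3.

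The genes called higher ran against the rest of chromosome 6. Gm15401/Tcf7l1, opposite the gene for a repressor of Wnt targets that is known to restrain self-renewal, held 699 and 788 counts in KO1 and 468 and 432 in wild type, 613 ± 67.5 against 388 ± 29.8 CPM. It rose by 0.66 ± 0.08 on the log2 scale (adjusted p 1.55e-06), or 1.12 ± 0.08 relative to the chromosome. Atg7, which encodes an autophagy enzyme, held 70 and 72 counts against 35 and 40 and rose by 0.85 ± 0.21, and BC060267, of which no function is given here, held 70 and 61 against 34 and 33 and rose by 0.90 ± 0.22. Both calls were lost under DESeq2 and when 1 library was left out (KO1 replicate 2 or wild type replicate 1 for Atg7, adjusted p up to 0.0640; KO1 replicate 1 for BC060267, adjusted p 0.0674). The remaining pair had few counts: Acrbp, a gene of the sperm acrosome, held 16 and 12 against 1 and 3 (call lost without KO1 replicate 1 or wild type replicate 1, adjusted p up to 0.0839), and Tmem40, a membrane protein gene, held 12 and 12 in KO1 and 0 in both wild type libraries. Copg2/Mest lies opposite Mest, an imprinted gene, and held 1161 and 1105 counts against 1070 and 1095, so that its groups differed little on the original scale (-0.0015 ± 0.0599) while the chromosome around it was lower.

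**Figure D3:**
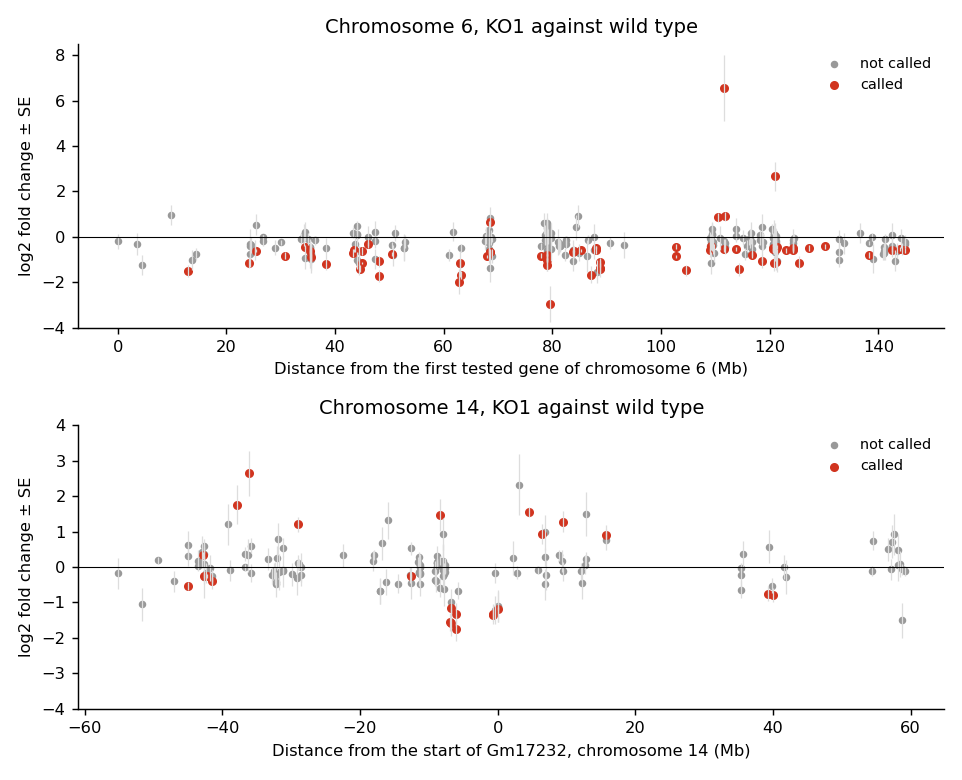
Log2 fold change with its SE for each tested gene of chromosome 6 (upper panel, by distance from its first tested gene) and of chromosome 14 (lower panel, by distance from the start of Gm17232), in Mb, with called genes in red. Chromosome 6 is lower along its length, and on chromosome 14 a run of 14 genes around Gm17232 lies below 0.

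On chromosome 14 a run of neighbouring genes was lower while the rest of the chromosome was not. The run was found after the values were seen and is a description without a test. All 14 tested genes with starts between 57 and 65 Mb (57226098 to 64226209 in mm9) lay below 0, with a median of -1.19, a ratio of 0.438, and 8 of them were called lower in the fit over all genes. The 97 tested genes nearer the start of the chromosome had a median of -0.021 and the 43 beyond it 0.067. The 10 tested genes just before the run had a median of -0.037, and the 10 just after it 0.27. Of 275 stretches of 5 Mb off chromosome 6 with at least 5 tested genes, the lowest median was that of 60 to 65 Mb here, at -1.18, and the next lowest was -0.49. In KO2 the same 14 genes had a median of -0.0093 against the same wild type libraries. Of them, 1 was called lower in KO2, Il17d (-1.22 ± 0.32), Pspc1 stood at -0.93 ± 0.33 without a call, and Gm17232/Tdh was called higher (0.29 ± 0.05). In a direct contrast, KO1 differed from KO2 at 10 of the 14, and at 19.3% of all tested genes. Il17d (-0.11) and Pspc1 (-0.66) were not among the 10.

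The gene with the smallest p of all lies in that run. Gm17232/Tdh (chromosome 14, 64112536 to 64118709, plus strand), opposite threonine dehydrogenase, an enzyme that mouse ES cells are known to rely on to feed one-carbon metabolism, held 2206 and 2045 counts in KO1 and 4428 and 4750 in wild type. These were 1749 ± 48.8 and 3956 ± 116 CPM, a log2 fold change of -1.18 ± 0.05 (adjusted p 2.99e-17), and the groups were widely separated. On the other strand, Tdh held 10 and 9 counts against 14 and 26 and was not called (-1.13 ± 0.42, adjusted p 0.0883). Gm16973/Mphosph8, opposite the gene for a reader of H3K9 methylation in the HUSH silencing complex, held 161 and 180 counts against 362 and 359 and fell by 1.15 ± 0.10 (adjusted p 2.10e-09). 4931440J10Rik, whose exons overlap those of Ints6 on the other strand by less than 50 bases, held 52 and 57 counts against 129 and 136 and fell by 1.35 ± 0.16.

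The other called genes of the run had fewer counts. Gm16573/Parp4, opposite the gene for the vault poly(ADP-ribose) polymerase, held 24 and 20 counts in KO1 and 61 and 63 in wild type. 2310043D23Rik/Ift88, opposite a gene needed to build the primary cilium, held 10 and 10 against 35 and 30, and Gm17640/Wdfy2 held 18 and 21 against 48 and 46. Il17d, a cytokine gene, held 12 and 17 against 31 and 39, and Pspc1, a paraspeckle protein gene, held 8 and 11 against 23 and 32. Groups did not overlap in any of these. The Pspc1 and Il17d calls were lost without KO1 replicate 1 and without wild type replicate 2 (adjusted p up to 0.0782 and 0.126). The smallest difference of the run was at Ctsb/Fdft1, with 41 and 26 counts against 31 and 41 (-0.17 ± 0.28).

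Away from these regions, the largest lower value among named genes was at Gm17329/Col1a1 (chromosome 11, 94810494 to 94811645), whose shared collagen repeat is shown above. It held 4 and 3 counts in KO1 and 78 and 94 in wild type, 2.87 ± 0.508 against 74.1 ± 8.25 CPM. No KO1 library held more than 4 counts and no wild type library fewer than 78, and the log2 fold change was -4.64 ± 0.36 (adjusted p 1.35e-10). Syn3/Timp3, opposite an inhibitor of metalloproteinases, held 16 and 19 counts against 75 and 97 and fell by 2.35 ± 0.25. Gm15270/Ctgf, opposite a matrix-associated growth factor gene, fell by 0.39 ± 0.12 (adjusted p 0.0309), a call lost under DESeq2 and without any 1 of the 4 libraries (adjusted p up to 0.242).

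Not all of the matrix list fell. Of its 31 genes, 8 had a tested gene opposite, and these 11 opposite genes had a median of -0.39, with 4 lower and 4 higher. Over all tested genes, 6.34% were lower and 3.46% higher. The higher ones were a pair opposite Tgm2, the gene for a protein-crosslinking transglutaminase, and a pair opposite Adam19, a metalloprotease gene. RP23-396G1.3/Tgm2 held 37 and 61 counts against 8 and 15 and rose by 2.01 ± 0.35 on the log2 scale, and Gm16033/Adam19 rose by 0.97 ± 0.10 (adjusted p 4.55e-08). The second call of each pair, Rprd1b/Tgm2 and Gm16034/Adam19, was lost without KO1 replicate 2 (adjusted p 0.194 and 0.197), the first also without wild type replicate 1 and the other under DESeq2. One of the 4 lower genes, Htra2/Loxl3, lies on chromosome 6. Apol7d/Fn1, opposite fibronectin, was at 1181 CPM in wild type and was not called (0.07 ± 0.06). As markers of feeder fibroblasts, Col1a2, Col3a1, Thy1, Postn, Dcn and Lum, 6 of 11 listed, were at 0 under their own names in all 4 libraries. The list summed to 76.8 and 92.2 CPM in KO1 and 72.6 and 69.7 in wild type. Only 2 genes had a member named opposite them, Apol7d/Fn1 and Gm17329/Col1a1, and they summed to 1202 and 1284 against 1239 and 1272. Pcsk7, the gene named opposite the member Tagln, did not enter this sum. That sum is mostly Apol7d/Fn1 (1240 CPM in KO1, 1181 in wild type) and hides the fall of Gm17329/Col1a1 from 74.1 to 2.87 CPM. These sums read by symbol do not cover the message strand of the 6 genes, and the part of other cell types in these values was not tested.

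The loci of Tcfap2a, Fgf10, Lefty2, Foxd1 and Fosl1 were also lower. Gm16989/Tcfap2a, opposite a regulator of ectoderm and trophoblast, held 11 and 6 counts in KO1 and 51 and 41 in wild type, 6.96 ± 2.73 against 39.7 ± 6.91 CPM, and fell by 2.49 ± 0.34 (adjusted p 4.15e-06). Gm16263/Fgf10, opposite a growth factor gene of limb and lung budding, held 12 and 13 counts against 42 and 46 and fell by 1.87 ± 0.30. Lefty2, an inhibitor of Nodal signalling with no gene opposite, held 13 and 13 against 42 and 33 and fell by 1.59 ± 0.31. In all 3 both KO1 libraries lay below both wild type libraries. Foxd1, a forkhead factor gene with none opposite, held 3 and 0 counts against 27 and 21 (adjusted p 5.89e-05), a ratio of summed counts, scaled for library size, of 16.8 in favour of wild type with a 95% interval of 5.4 to 84.1 that covers counting error only. Ccdc85b/Fosl1, opposite an AP-1 subunit gene, held 16 and 15 counts against 29 and 41 and fell by 1.23 ± 0.30, a call lost under DESeq2 and without KO1 replicate 1, KO1 replicate 2 or wild type replicate 2 (adjusted p up to 0.142).

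Loci of neuronal genes moved in both directions. E130003G02Rik/Grin1, opposite a gene for a subunit of the NMDA glutamate receptor, held 271 and 236 counts in KO1 and 77 and 79 in wild type, 208 ± 15.0 against 67.3 ± 0.148 CPM, and rose by 1.63 ± 0.13 on the log2 scale (adjusted p 2.50e-10). Nefm/Nefl, a pair of overlapping neurofilament genes, held 228 and 197 counts against 69 and 69 and rose by 1.55 ± 0.15 (adjusted p 1.04e-08). AL672259.1/Nnat, annotated as a microRNA gene of 87 bases opposite the imprinted neuronatin gene, went the other way, with 6 and 4 counts against 36 and 48, and fell by 3.10 ± 0.38 (adjusted p 8.03e-07), while Nnat on its own strand was not called (0.04 ± 0.21). The groups did not overlap at any of these called genes. Of the 24 genes on the neural list, 3 had a tested gene opposite, 2 higher and 1 lower, and 8 were tested by their own symbol, with 1 higher (Nefm) and 1 lower (Syn3). Nefm/Nefl enters both of these counts, and Syn3 is the Syn3/Timp3 value already given for the matrix list. Over all tested genes, 3.46% were higher and 6.34% lower. Pax6/Elp4, the most abundant of the neural marker genes, was not called (0.18 ± 0.12).

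**Figure D4:**
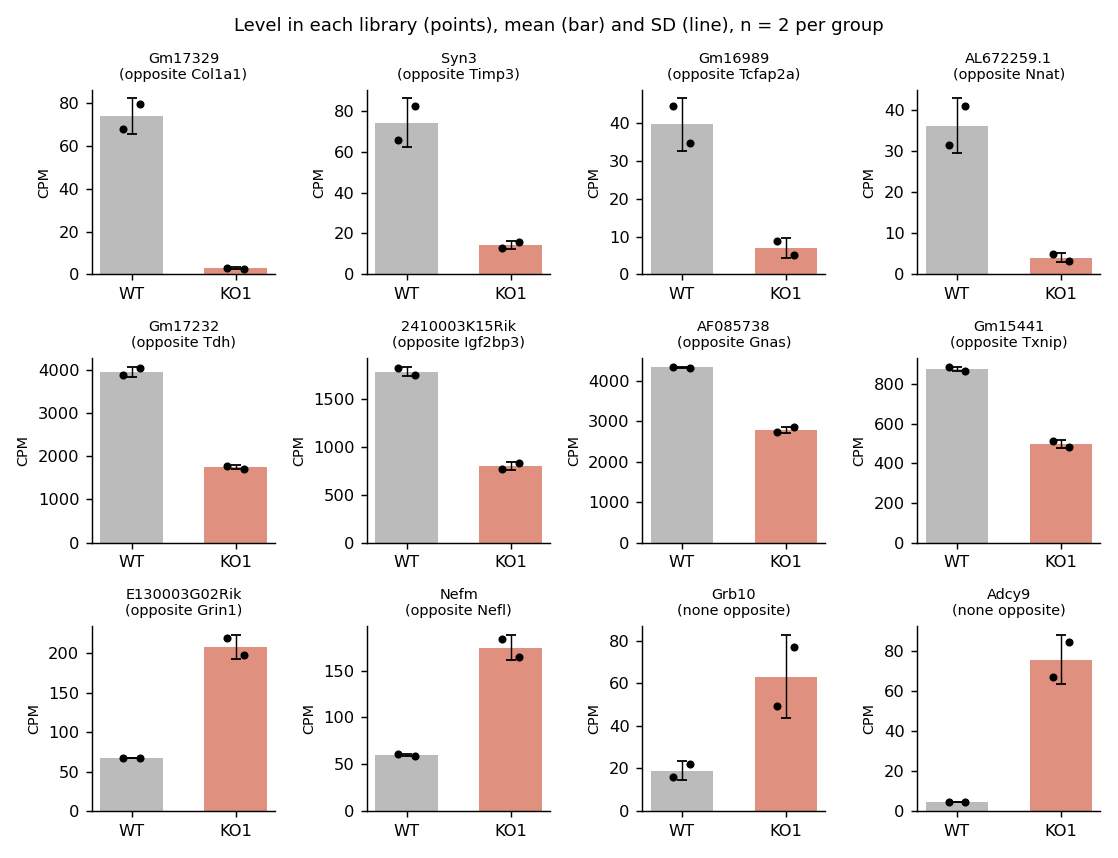
Level in CPM of 12 named genes in the 2 wild type (WT) and 2 KO1 libraries (points), with the group mean (bar, from 0) and SD (line). In each panel both KO1 libraries lie beyond both wild type libraries, below them in the first 8 panels and above them in the last 4. Genes named for the size of their change or their level had to meet this condition, and 51.1% of all tested genes met it.

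Among named genes with at least 20 CPM in 1 of the groups, the largest higher value was at Adcy9, which encodes an adenylate cyclase that makes cyclic AMP. It has no gene opposite and held 83 and 101 counts in KO1 and 5 and 5 in wild type, 75.9 ± 12.4 against 4.31 ± 0.088 CPM. Wild type counts stood at 5 in each library where KO1 had at least 83, and the log2 fold change was 4.10 ± 0.33 (adjusted p 2.27e-10). Osbpl1a, an oxysterol-binding protein gene, held 61 and 43 counts against 7 and 9 and rose by 2.61 ± 0.34. Slc9a3r2, a scaffold gene for membrane transporters, held 29 and 25 against 8 and 5, and Ccdc85c, a gene of neuroepithelial cell junctions, held 78 and 65 against 18 and 17. Their log2 fold changes were 1.97 ± 0.40 and 1.96 ± 0.25.

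Other higher genes lay opposite a named gene. Gm13938/Ttn, opposite the gene for the muscle protein titin, held 39 and 47 counts in KO1 and 7 and 13 in wild type and rose by 2.02 ± 0.33. A330033J07Rik/Id4, opposite an inhibitor of basic helix-loop-helix factors, held 70 and 63 against 21 and 26 and rose by 1.43 ± 0.26. Gm15622/Bhmt, opposite the gene for the enzyme that remethylates homocysteine with betaine, held 67 and 59 against 29 and 20 and rose by 1.29 ± 0.23 (adjusted p 0.000275). Groups did not overlap in any of the 3. D430040D24Rik/Fam178b held 32 and 21 counts against 3 and 8, and its log2 fold change of 2.18 ± 0.46 lost its call without KO1 replicate 1 (adjusted p 0.0894). Fam151a/Acot11 and Cc2d1b/A730068I03Rik rose by 1.39 ± 0.30 and 1.39 ± 0.31, the first with a call lost without KO1 replicate 2 and under DESeq2.

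Imprinted loci, where the parental copies are used unequally, were called in both directions. By their own symbol, 11 of 45 listed genes were tested and 4 were higher, with a median of 0.36, where 3.46% of all tested genes were higher. Counted by the gene opposite, 8 tested genes lay opposite a member, 1 higher and 2 lower, with a median of -0.086. Of all tested genes, 6.34% were lower. Some of these 8 are also among the 11, and the higher one, Commd1/Zrsr1, is 1 of the 4 higher genes. Grb10, an adaptor that dampens insulin receptor signalling, has no gene opposite and held 61 and 92 counts in KO1 and 18 and 26 in wild type, 63.2 ± 19.7 against 18.9 ± 4.49 CPM. It rose by 1.73 ± 0.26 (adjusted p 2.38e-05), with no overlap between the groups. At the Gnas locus, which encodes the stimulatory G protein subunit upstream of adenylate cyclase, the strands differed. AF085738/Gnas held 3392 and 3401 counts against 4972 and 5087 and fell by 0.63 ± 0.05 (adjusted p 4.40e-11), and Gnas itself, opposite AF085738, rose by 0.62 ± 0.15 (adjusted p 0.00572) from 88.0 to 135 CPM, a call lost under DESeq2 and without KO1 replicate 1 (adjusted p 0.232). Commd1/Zrsr1 and Rtl1/Mir433 were the other higher members, at 0.67 ± 0.12 and 0.42 ± 0.08, the latter lost without KO1 replicate 1 (adjusted p 0.0979).

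Glucose transport and glycolysis loci were lower where they were called. Of 27 listed genes, 5 had a tested gene opposite and 4 of these were lower, with a median of -0.43. Of all tested genes 6.34% were lower, and of those with a protein-coding gene opposite, 273 of 2114. None of the 4 lies on chromosome 6. Gm15441/Txnip held 633 and 578 counts in KO1 and 1012 and 1022 in wild type, 498 ± 19.2 against 877 ± 11.7 CPM, and fell by 0.82 ± 0.07 (adjusted p 2.50e-10). Gm12868/Slc2a1, opposite the glucose transporter GLUT1 gene, held 759 and 760 counts against 899 and 1061 and fell by 0.43 ± 0.07. Csnk1d/Slc16a3, opposite a lactate transporter gene, fell by 0.47 ± 0.10, and Gm17327/Gpi1, opposite an isomerase gene of glycolysis, fell by 0.26 ± 0.05, and both calls were lost without KO1 replicate 1 (adjusted p 0.106 and 0.136). Since Txnip is known to oppose the transporter that Slc2a1 encodes, the list holds genes of opposed roles. By their own symbol 17 were tested and 2 were lower, Slc2a3 on chromosome 6 (-1.06 ± 0.30) and Pfkp/Pitrm1 (-0.31 ± 0.09), with a median of -0.068. DESeq2 called 0 of the 17, and the Pfkp call was also lost without any 1 of the 4 libraries (adjusted p up to 0.197). The Slc2a3 call was lost when chromosome 6 was scaled on its own, under DESeq2 and in 3 of the 4 fits without a library, those without KO1 replicate 1, KO1 replicate 2 or wild type replicate 2 (adjusted p up to 0.210).

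The following loci moved by less. Small falls of abundant genes, here and in the lists, are given against 0. The 926 tested genes off chromosome 6 with at least 100 CPM had a median of -0.087. Off chromosome 6, 16% of genes in the highest of the 4 classes of level were called lower, and 0.78% in the lowest. Gm11175/Jund, opposite an AP-1 subunit gene, held 1252 and 1159 counts in KO1 and 1723 and 1638 in wild type and fell by 0.55 ± 0.06 (adjusted p 6.42e-08). Gm13061/Lin28a, opposite the RNA-binding repressor of let-7 microRNAs, held 401 and 362 against 515 and 503 and fell by 0.48 ± 0.09 (adjusted p 0.000323). Bysl/Ccnd3, opposite cyclin D3, held 1230 and 1229 against 859 and 985 and rose by 0.35 ± 0.06. Groups did not overlap in any of the 3. Among the most abundant genes, Tlcd1/Rpl23a fell by 0.24 ± 0.04 (call lost without KO1 replicate 1, adjusted p 0.0575), Map3k12/Pcbp2 by 0.20 ± 0.04 (likewise, adjusted p 0.0501) and 1810014B01Rik/Hsp90b1 by 0.18 ± 0.04 (likewise, adjusted p 0.190). Zranb1/1500002F19Rik rose by 0.33 ± 0.06, and Gm17300/Snhg3 by 0.18 ± 0.05, a call lost under DESeq2, with no filter, and without KO1 replicate 2 or wild type replicate 2 (adjusted p up to 0.276).

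Few chromatin genes were called, but calls were few over all tested genes too, at 9.79%. The share was 4.26% with no gene opposite and 16.9% with a protein-coding gene opposite, so lists of this size can hold few or no calls. Of 33 Polycomb genes, 13 were tested by their own symbol and 0 were called by edgeR or DESeq2 (3 at an unadjusted p under 0.05), and 9 tested genes lay opposite a member, with a median of 0.040 and 1 call each way. The lower one is Gm17629/Ezh2 on chromosome 6, described above. The higher one, Gm16706/Suz12, whose shared exon is shown above, held 1939 and 1837 counts in KO1 and 1461 and 1408 in wild type, 1554 ± 19.5 against 1238 ± 57.5 CPM, and rose by 0.33 ± 0.06 (adjusted p 0.000112). Both KO1 libraries lay above both wild type libraries. Tmed5/Mtf2, Gm17525/Rbbp4 and Chadl/L3mbtl2, all abundant in wild type (1481, 1365 and 1645 CPM), gave -0.03 ± 0.05, -0.08 ± 0.06 and -0.13 ± 0.05 and were not called. Of the H3K36 methylation list, Nsd1 was the only call by own symbol among 8 tested, and Gm15492/Brpf1 on chromosome 6 the only one among 5 genes opposite (-0.40 ± 0.13, adjusted p 0.0419). That call was lost under DESeq2 and without KO1 replicate 2 or wild type replicate 1 (adjusted p up to 0.404), and the sign turned on the chromosome's own scale (0.067 ± 0.124).

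The class I histone deacetylase list had 0 calls among 19 genes tested by own symbol and 0 among 7 opposite, both by edgeR and by DESeq2, with 2 of each at an unadjusted p under 0.05 in edgeR. Of all tested genes, edgeR called 9.79%. For the list of H3K27 acetyltransferases, their readers and Mediator, 21 and 8 were tested, and the calls were 4632419I22Rik/Med13, which rose by 0.31 ± 0.08, and Gm17282/Med10, which fell by 0.22 ± 0.06. Both were lost under DESeq2, the first also without KO1 replicate 2 or wild type replicate 2 (adjusted p up to 0.276) and the second without either KO1 replicate or wild type replicate 1 (adjusted p up to 0.185).

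Few pluripotency genes were called on the strand that was counted, where 9.79% of all tested genes were called and 4.26% of those with no gene opposite. Lists of this size can hold no calls at these shares. Several members had few counts, such as Pou5f1 with 16 and 18 in KO1 and 17 and 14 in wild type. Of 16 general and 19 naive pluripotency genes, 9 and 11 were tested by own symbol, with medians of 0.18 and 0.085. Of these, 0 were called by edgeR or DESeq2, and 0 and 3 had an unadjusted p under 0.05 in edgeR, the 3 being Klf2 (0.52 ± 0.18), Zfp42 (-0.70 ± 0.28) and Fgf4 (0.68 ± 0.33). Sox2 held 92 and 100 counts in KO1 and 81 and 81 in wild type (0.18 ± 0.16), and Klf4 162 and 134 against 154 and 133 (-0.02 ± 0.14). The 14 ES cell markers summed to 314.5 and 347.9 CPM in KO1 and 352.6 and 326.5 in wild type, so the groups overlapped. Opposite genes of these lists, Gm14261/Sall4 and Gm2301/Tbx3, at 483 and 525 CPM in wild type, gave 0.04 ± 0.08 and 0.21 ± 0.07 and were not called, and Gm13061/Lin28a was lower, as given above. Nanog, which lies on chromosome 6, held 1 and 13 counts against 14 and 4 and was too variable to place (-0.42 ± 0.68). These symbols mostly read the strand opposite to the known message, so the sums do not check the cell type by its own transcripts.

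The other lists held few tested genes, and 9.79% of all tested genes were called. Of the formative and primed pluripotency list, 4 were tested by own symbol with Lefty2 lower, and 2 opposite with Gm15401/Tcf7l1 higher. The primitive streak and mesoderm list had 4 tested with Foxd1 lower, and Eomes, a regulator of mesoderm and endoderm, was not called (-0.996 ± 0.50). The trophoblast list had 2 tested by own symbol and 1 opposite, Gm16989/Tcfap2a, which was lower. Of the Hox list, Hoxc13 was lower by own symbol (-0.61 ± 0.20, adjusted p 0.0469), a call lost in each fit that left out a library, with adjusted p up to 0.241, while 2700086A05Rik/Hoxa7, given above, lies on chromosome 6. The immediate early list had 6 tested by own symbol, and of 3 genes opposite, those at Jund and Fosl1 were lower. Of the threonine and one-carbon list, 8 were tested by own symbol and 4 opposite, with 1 lower at Tdh and 1 higher at Bhmt. The endoderm and p53 target lists had 2 and 4 genes tested, with 0 called by edgeR or DESeq2 and 0 and 1 at an unadjusted p under 0.05. Of 8 tested mitochondrial transcripts on the list, mt-Cytb was higher (0.49 ± 0.14, adjusted p 0.0249), with 361 and 259 counts against 238 and 184, a call lost under DESeq2 and without KO1 replicate 1 or wild type replicate 2 (adjusted p up to 0.389).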

How the data were processed

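Raw counts per gene were deposited by the authors as 1 table per library. Per the file headers, featureCounts 2.0.1 counted paired fragments in exons of GENCODE mouse version 1 genes (mm9), with its strand setting at 1. The submitters' processing notes name, without roles, bedtools 2.92.2, featureCounts 2.0.0, STAR 2.5.4b, GATK 4.1.4.0, Trim Galore 0.6.4 and Bowtie2. Whether the library kit marked strand is not stated in the labels' protocols.

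Genes with exons overlapping by at least 50 bases on the other strand were paired with bedtools 2.31.1, and for each gene the partner with the largest overlap was named. In R 4.3.3, edgeR 4.0.16 was used with filterByExpr (minimum count 10), TMM scaling and a robust quasi-likelihood fit of 6 libraries in 3 groups, which left 3 residual degrees of freedom and a common coefficient of variation of 4.46%. A gene was called at a Benjamini-Hochberg adjusted p under 0.05 over all 5034 tested genes. Log2 fold changes carry the SE of the fit, and CPM the SD over 2 libraries. Replicates of a group differed by more than sampling noise (chi-square per degree of freedom 2.08 in KO1 and 1.47 in wild type), so no pair was treated as a repeat deposit of 1 library, which does not show that they came from separate cultures. The steps were tested on simulated counts. Alternatives included DESeq2 1.42.0, other scalings and filters, a test against a log2 change of 0.5, and each library left out. The fits without a library assume that the lone library of its group varies like the other groups.

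The 20 gene lists and all members were chosen with earlier results of these data known. Named genes were called, at 20 CPM or more and without overlap between groups, and small RNA genes were left out, except AL672259.1, a microRNA gene taken as a list member. Off chromosome 6, these were the 8 largest changes each way with a coding gene opposite, the 4 largest with none and the 4 most abundant. On chromosome 6, they were the 8 largest lower, the 4 largest higher and the 4 most abundant lower. Added were up to 3 called members of each list, the tested genes of a list around Nanog on chromosome 6, and Nsd1, its relatives, Hdac1 and Hdac2. Other genes named, such as uncalled list members, the chromosome 14 run, Copg2, Acrbp, Tmem40 and A730049H05Rik, were chosen after their values were seen. Some of the genes so chosen are not reported here. Other samples of the series, from chromatin assays, were not analysed here. Sequences are from the mm9 genome, with exons as in GENCODE version 1.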

Additional observations from a re-analysis of the deposited data

Results flagged for a closer look

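For 51 of the 69 named called genes, the KO1 line also differed from KO2 at an adjusted p under 0.05 in the same edgeR fit. This contrast shares the KO1 libraries with the contrast against wild type, so a gene chosen for a KO1 value is more likely to pass it, and of all tested genes 19.3% passed. Passing it does not mean that KO2 was like wild type: E130003G02Rik/Grin1 was also higher in KO2 than in wild type, by 1.20 ± 0.14. Some named genes that did not pass it moved the same way in KO2 against wild type. Examples are Gm17329/Col1a1 at -5.05, Syn3/Timp3 at -2.84, Grb10 at 1.98, RP23-396G1.3/Tgm2 at 1.70 and Gm11175/Jund at -0.67. In the lists that follow, values in parentheses are KO1 minus KO2 on the log2 scale.

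On the chromosome 14 run these were Gm16573/Parp4 (-1.69), 2310043D23Rik/Ift88 (-1.08), 4931440J10Rik (-1.17) and Gm17232/Tdh (-1.47). On chromosome 6 they were Gm4876/Tes (-1.79), Irf5/Tnpo3 (-0.48), Gm17629/Ezh2 (-0.45), Zfp775 (-1.07), 2410003K15Rik/Igf2bp3 (-1.11), Il12rb2 (-1.21), Loxl3/Htra2 (-1.19), Htra2/Loxl3 (-0.998), Aup1/Htra2 (-1.20), Gm5577/H1fx (-0.73), Gm14573/Hdac11 (-1.87), Gm15737/Adamts9 (-1.21), 0610040F04Rik/Bhlhe40 (-1.10), Gm15492/Brpf1 (-0.41), Slc2a3 (-1.39) and Gm15884/Phb2 (-0.62) in the lower direction and Gm15401/Tcf7l1 (1.37) and BC060267 (0.62) in the higher direction. Elsewhere, genes higher in KO1 than in KO2 were D430040D24Rik/Fam178b (3.03), Ccdc85c (1.97), A330033J07Rik/Id4 (1.86), Nsd1 (0.89), Nefm/Nefl (2.20), Adcy9 (2.87), Slc9a3r2 (1.05), Bysl/Ccnd3 (0.71), Osbpl1a (2.46), E130003G02Rik/Grin1 (0.44), Gm13938/Ttn (3.73), Cc2d1b/A730068I03Rik (1.52), Gm17300/Snhg3 (0.42) and Zranb1/1500002F19Rik (0.45). Genes lower in KO1 than in KO2 were Lefty2 (-1.28), 1810014B01Rik/Hsp90b1 (-0.13), Tlcd1/Rpl23a (-0.71), Gm16989/Tcfap2a (-2.75), Gm17282/Med10 (-0.33), Foxd1 (-3.07), Gm16263/Fgf10 (-1.16), AL672259.1/Nnat (-3.43), AF085738/Gnas (-0.42), Gm15441/Txnip (-0.36), Gm12868/Slc2a1 (-0.50) and Gm17327/Gpi1 (-0.31). The fitted Foxd1 value rests on 3 counts in KO1 and is no bound.

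In a few genes KO1 lay above wild type but below KO2: Gm16706/Suz12 (-0.52), 4632419I22Rik/Med13 (-0.25) and Gm15622/Bhmt (-2.06). At Gm15622/Bhmt, for example, KO2 held 247 and 257 counts, KO1 67 and 59, and wild type 29 and 20.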

How the results depend on the processing

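The chromosome 6 shift kept its direction under the 12 alternatives that gave it a value (none was computed for the test beyond a log2 change of 0.5 or with chromosome 6 scaled on its own, which removes it), and the number of calls varied around the 174 higher and 319 lower reported. DESeq2 called 33 higher and 149 lower, with 42 lower and 1 higher on chromosome 6 and a median shift of that chromosome of -0.31, and testing for a log2 change beyond 0.5 gave 30 and 44, with 16 and 2 on chromosome 6. With no filter the shift was -0.32, and with a minimum count of 30 it was -0.45 with 3 higher genes. Without each library in turn, 93 to 139 genes were higher and 187 to 259 lower, with 49 to 59 lower and 2 to 5 higher on chromosome 6 and a shift of -0.51 to -0.45. Chromosome 6 scaled on its own gave 18 lower and 12 higher. With the replicate block, 169 genes were higher and 313 lower (63 lower and 5 higher on chromosome 6, shift -0.44). Same-numbered libraries of KO1 and wild type did not deviate together (r = 0.0109 across genes), so the numbers are not taken to pair them. Of the named genes only Gm15492/Brpf1 lost its call with the block (adjusted p 0.0532). Of the 69 named called genes, 35 kept the call in every setting that tested them. Signs turned at Gm15492 (0.067 with chromosome 6 on its own), Nanog (-3.12 to 0.75 when a library was left out, with 0.50 without KO1 replicate 1, 0.75 without wild type replicate 1, 0.037 with chromosome 6 on its own), Gm4485/Foxj2 (-0.57 to 0.25 when a library was left out, the latter without wild type replicate 1, and 0.25 with chromosome 6 on its own) and Whsc1l1 (-0.086 to 0.10 when a library was left out, and -0.0040 with TMM factors from other chromosomes, -0.015 with no filter, -0.032 without KO1 replicate 2, -0.086 without wild type replicate 2), and the cause was not tested in any of these counts or genes. DESeq2 gave no adjusted p for 12 named genes. With a median of 24 to 27 counts per library, small changes of most genes were not detectable at this depth.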

Other observations

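Genes of the mitochondrial genome lay above 0 for the most part in KO1: of 16 tested, 2 lay below 0, the median log2 fold change was 0.30, and 3 were called higher. One of these calls, mt-Cytb, was lost without KO1 replicate 1, as given above. Over all tested genes, 3.46% were higher and 6.34% lower. Of 91 tested genes on the X chromosome, 6 were higher and 9 lower, with a median of -0.026. On chromosome 14 outside the run at Tdh, 5 of the 97 genes nearer the start were higher and 5 lower, and 4 of the 43 beyond it were higher and 2 lower.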
